A study of Homo sapiens with 19 samples.

Results

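The comparison described here is that of vit C-treated against untreated (UT) THP-1 cells after 24 h, measured on 5 of the 19 arrays of the series. The 2 vit C-treated and 3 UT arrays of 24 h were chosen by their labels. A gene was taken in when the scanner software marked it as well above background throughout 1 of the 2 groups, as held for 20623 of the 31033 gene names on the array. Of these, 4057 had probes moving in opposite directions and were left out, so that 16566 were tested.

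THP-1 is a human monocytic leukaemia line that stops dividing, adheres and becomes macrophage-like under the phorbol ester PMA. Flasks of the line were differentiated overnight with 30 nM PMA, rested briefly in fresh medium, and then either received 0.1 mM vit C or did not. Both groups therefore carried the PMA treatment, and they differed by the single dose of vit C given 24 h before the RNA was taken. The study began with flasks in triplicate as biological replicates and hybridized the RNA samples that passed its limit of RNA integrity. Replicates of 1 cell line share its genome, so the spread is that between flasks.

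Vit C (ascorbate) is an electron donor and a cofactor of iron- and copper-dependent hydroxylases and demethylases, among them those that mark hypoxia-inducible factor for degradation and those that oxidize methylated cytosine. Macrophages take it up through sodium-coupled transporters and, in its oxidized form, through glucose transporters. PMA activates protein kinase C, and in THP-1 cells the macrophage programme that follows includes AP-1 and SRF target genes, secreted proteases and an exit from the cell cycle.

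The normalized level used throughout is the log2 of the processed signal minus the 75th percentile of that array, so that 0 is the level of a probe at the 75th percentile. The 75th percentile of the signal was 290.2, 456.2 and 318 on the UT arrays of 24 h and 371.3 and 561.8 on the vit C-treated arrays. Pearson correlations over detected probes were 0.987 to 0.993 between UT arrays, 0.979 between the vit C-treated arrays, and 0.968 to 0.983 between the groups. The slide numbers in the names of the scans placed the 3 UT arrays on slide 1 and both vit C-treated arrays on slide 2. Slide and treatment therefore cannot be told apart at 24 h. The arrays of 8 h had the same layout. Only the UT cells of 96 h lay on both slides, 1 array on slide 1 and 2 on slide 2. Their difference is given below beside the results as the slide difference. It is also a difference between flasks, with 1 array on slide 1, so flask and slide cannot be told apart in it.

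Most macrophage markers were detected. Of 19 monocyte and macrophage markers on the array, 17 were well above background on all 5 arrays, with CSF1R, the receptor of macrophage colony-stimulating factor, at a mean level of 8.51 in UT and 8.37 in vit C-treated cells. CD14 stood at 3.03 and 3.78 and TYROBP at 7.55 and 7.51, CD68 at 3.55 and 2.78, CTSS at 3.59 and 2.60 and LYZ at -2.45 and -3.27. Of the 17 markers of this list that entered the test 13 lay below 0, with a median log2 fold change of -0.26, and none was called. MRC1, the mannose receptor, was not well above background on any of the 5 arrays. Markers of other cell types were partly detected. Well above background on all 5 arrays were 5 of 18 T and NK cell, 5 of 12 B and plasma cell, 5 of 14 fibroblast, 5 of 12 epithelial, 7 of 10 endothelial, 2 of 11 erythroid and 6 of 12 granulocyte markers. Among those detected were CD79A at mean levels of 1.01 in UT and 1.59 in vit C-treated cells, FAP at 3.56 and 3.84, CTSG at 2.16 and 1.97 and KRT8 at 0.64 and 0.70, whereas CD3D, LCK, MS4A1, CDH5, CDH1, HBB and MPO were not well above background on any array. The linear levels summed over the monocyte and macrophage list were 713.2 to 802.7 times the 75th percentile in UT and 656 and 749 in vit C-treated cells, against 1.02 to 1.18 and 1.31 to 1.48 for T and NK cell markers. They were 2.76 to 3.79 and 3.00 to 5.44 for B and plasma cells, 3.44 to 4.19 and 4.11 to 4.48 for epithelial cells, 2.73 to 3.40 and 2.09 to 2.48 for endothelial cells, 0.37 to 0.56 and 0.41 to 0.54 for erythroid cells, and 6.31 to 10.96 and 6.0 to 6.69 for granulocytes. Fibroblast markers, given below beside PDGFRB, had the highest sums among the lists of other cell types. The lists differ in length and in probes, so these sums do not rank the cell types. In RNA from whole flasks, a smaller share of expressing cells and less RNA per cell cannot be told apart.

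A gene was called where a probe differed by at least 1 on the log2 scale (a doubling) with a Benjamini-Hochberg q of at most 0.05 in limma. At 24 h 368 of the 16566 genes were called, which is 2.22%. The level on the vit C-treated arrays was higher for 213 (1.29%) and lower for 155 (0.936%), and 100 of the higher and 117 of the lower ones had a gene symbol. For 71 of the higher genes not every UT array was above background, and for 15 of the lower ones not every vit C-treated array was. Where both groups were above background throughout, 142 were higher and 140 lower, and with no limit on detection, over 26108 genes, it was 220 and 218. The split between higher and lower genes therefore depended on how dim genes were treated. Over all genes tested the median log2 fold change was -0.04. On the called probe the vit C-treated arrays did not overlap the UT arrays in any of the 368 genes, and on the brightest probe they did not overlap in 35.1% of all genes tested (16.2% higher and 18.9% lower).

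**Figure D1:**
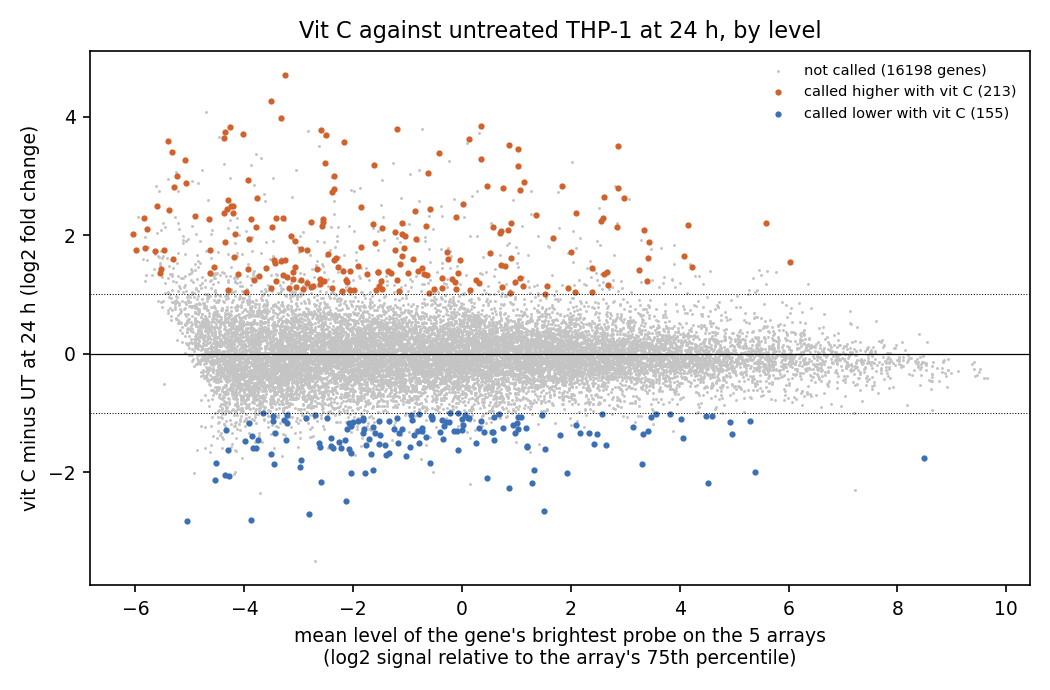
Each point is 1 of the 16566 genes tested, with the mean level of its brightest probe on the 5 arrays of 24 h (log2 relative to the array's 75th percentile) on the x axis and the log2 fold change of vit C-treated over UT cells on the y axis (of the called probe for called genes). The 213 higher and 155 lower genes spread over the whole range of levels, and the dotted lines mark log2 fold changes of 1 and -1.

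How many genes were called depended on single arrays. Without vit C replicate 2 the count was 69, without vit C replicate 1 it was 302, and without UT replicate 1, 2 or 3 it was 232, 205 or 200. The share that was higher, 57.9% of the 368, was 42% without vit C replicate 2 and 36.1% without vit C replicate 1. With slide as a block, which only the UT arrays of 96 h can estimate, 17 genes were called. Among the genes named below, 86 were called, and 20 of them were called again whichever of the 5 arrays was left out: ACTG2, ADAMTS1, ADM, BHLHB3, CCL1, DUSP13, FCGR3A, FLNA, GPR18, HSPB3, MARCO, MMP1, OSM, PDGFRB, PROC, SLC1A2, SSPN, TGFB3, ZFP36 and ZFYVE28. A further 15, CD180, CDC7, CHRM3, COL24A1, CYR61, DTL, EREG, FHL1, GINS2, ITGA2, MMP7, PCSK6, POLQ, SERPINB2 and TNFAIP8L3, were lost only without vit C replicate 2.

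Raised and lowered genes differed in how they read on the UT arrays of 96 h. In those untreated cells slide 2 was at least 1 log2 unit above slide 1 for 70 of the 213 raised genes (32.9%), for 785 of the 16198 genes not called (4.85%), and for none of the 155 lowered genes. Without UT 96 h replicate 3, which stands apart from the other arrays of its group, it was 67, 1010 and 1 genes. The difference was read on the called probe for called genes and on the brightest probe for the others. The shares therefore compare unlike probes. The 70 raised genes had a median log2 fold change of 2.56 at 24 h and of 2.12 at 8 h, and 23 of them had a gene symbol. The other 143 had medians of 1.42 and 0.43, and 77 had a symbol. The part of the slide in these rises was not tested.

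**Figure D2:**
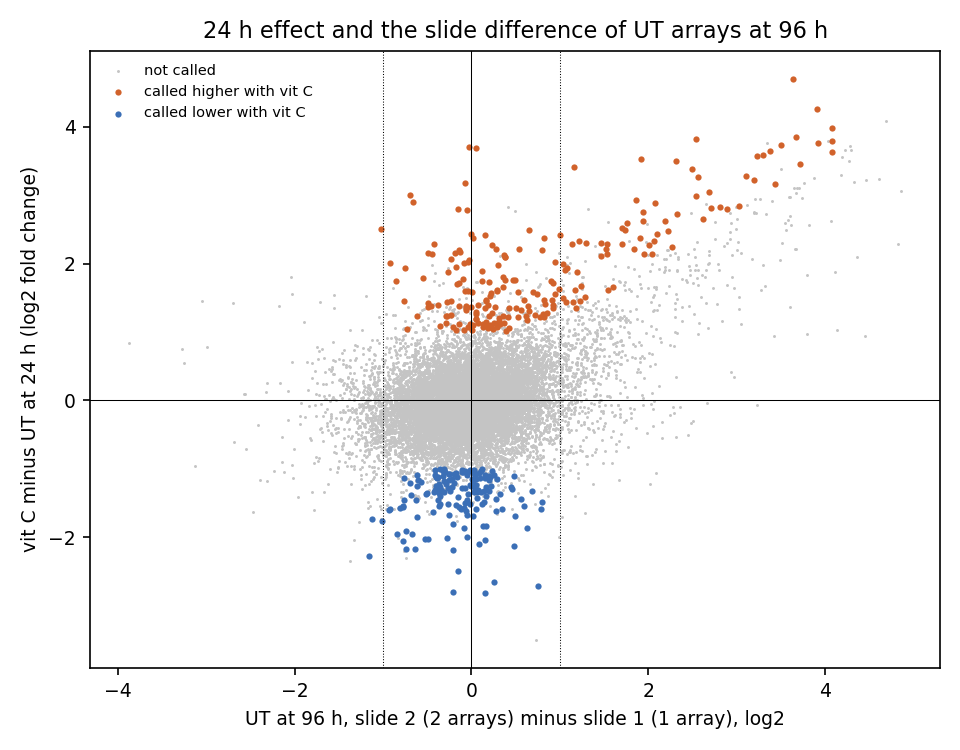
For each gene tested, the x axis gives the difference between slide 2 (2 arrays) and slide 1 (1 array) within untreated cells of 96 h, and the y axis the log2 fold change of vit C-treated over UT cells at 24 h. Both are of the called probe for called genes and of the brightest probe for the others. A band of raised genes (orange) runs to the upper right beyond a slide difference of 1, whereas no lowered gene (blue) has a slide difference of 1 or more and 3 have one of -1 or less.

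Of the 12 greatest rises among symbol-bearing genes whose most changed probe was above background on all 5 arrays, 7 lay in that band: RPL23AP13, ICMT, HIST1H3J, PABPC3, TMEM16H, HIST1H3I and HNRNPA3P1. RPL23AP13 (now RPL23AP32), a ribosomal protein pseudogene, read -1.27, -1.38 and -1.32 in UT and 2.17 and 2.44 in vit C-treated cells, 3.63 ± 0.85 apart on the log2 scale (SE, q = 0.0474), and UT cells of 96 h read 4.08 higher on slide 2 than on slide 1. PABPC3, a retrotransposed relative of the poly(A)-binding protein PABPC1, differed by 2.80 ± 0.61 (q = 0.0359) with a slide difference of 2.90. The histone H3 gene HIST1H3J (now H3C12) differed by 3.05 ± 0.57 (q = 0.0177) with 2.69 between the slides. Pseudogenes and histone copies share sequence with relatives that the probes may also bind, so these values are uncertain for the gene. The other 50 of 52 replication-dependent histone genes tested were not called, and the median of the list was 0.01.

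The other 5 of the 12 were IQCG, CCL1, BHLHB3, HSPB3 and SSPN. SLC1A2, described below with the genes that differed from 8 h, rose more than these, but its most changed probe was not above background on all 5 arrays. CCL1, a chemokine that attracts monocytes and T helper cells through CCR8, read 4.68, 4.89 and 4.51 in UT and 7.0 and 6.80 in vit C-treated cells, a log2 fold change of 2.21 ± 0.23 (q = 0.000313). BHLHB3 (now BHLHE41), a repressor of the circadian clock that also acts in alveolar macrophages, read 3.46, 3.22 and 3.16 against 5.05 and 5.87 (2.18 ± 0.26, q = 0.00107). HSPB3, a small heat shock protein, read 2.75, 2.33 and 2.44 against 4.44 and 4.75 (2.09 ± 0.20, q = 0.00022). The UT slide differences of these 3 at 96 h were 0.54, -0.13 and 0.38. SSPN, sarcospan of the dystrophin complex, rose by 2.07 ± 0.23 (q = 0.000636), and IQCG (now DRC9), of the dynein regulatory complex of cilia, by 2.22 ± 0.27 (q = 0.00111).

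Genes of DNA replication and repair stood higher together in vit C-treated cells at 24 h, mostly by less than a doubling. The 5 growth lists were those of DNA replication, homologous recombination and Fanconi repair, centromere and kinetochore assembly, mitosis, and nucleotide supply. Of their 166 genes tested, 141 had a log2 fold change above 0, 12 were called higher, and none was called lower. All 12 calls were lost without vit C replicate 2, in the fit on the 5 arrays of 24 h alone, with slide as a block and with the replicate number as a block, and 10 of them after normexp background correction. These lists overlap with the genes that the study singled out on these arrays, so their direction is not independent evidence.

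Among the replication genes, 36 of 38 tested lay above 0 with a median of 0.52, and 3 were called higher. Relative to the UT mean, the median of the 38 was -0.03, 0.01 and 0.03 on the UT arrays and 0.41 and 0.58 on the vit C-treated arrays. At 8 h the same genes had a median of -0.16, with -0.16, -0.18 and -0.14 on the 3 vit C-treated arrays of that time, which shared slide 2. GINS2, a subunit of the GINS complex of the replicative helicase, read 0.55, 0.68 and 0.75 in UT and 1.76 and 1.85 in vit C-treated cells, a log2 fold change of 1.14 ± 0.16 (q = 0.00393). CDC7, the kinase that phosphorylates the MCM helicase to fire origins, read -0.85, -0.81 and -0.81 against 0.10 and 0.49 (1.11 ± 0.20, q = 0.0151). The SD of the vit C-treated arrays (n = 2) was 0.06 in GINS2, where the UT arrays (n = 3) spread more. In CDC7 it was 0.28, against 0.02 in the UT arrays. The UT slide differences were 0.17 and -0.02.

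RFC3, a subunit of the clamp loader, was called by a second probe (1.08 ± 0.25, q = 0.0489), whereas its brightest probe differed by 0.09 ± 0.37. CDC6, which loads the helicase on origins, read 0.61, 0.58 and 0.50 in UT and 1.38 and 1.45 in vit C-treated cells, 0.85 apart with q = 0.0249 but less than a doubling. MCM3 read 4.23, 4.04 and 4.20 against 4.80 and 4.77 (0.63, q = 0.0798), and PCNA, the sliding clamp, 1.89, 1.79 and 1.46 against 2.05 and 2.73 (0.68, q = 0.281). CDC6, MCM3 and PCNA were not called and were picked after their values were seen, as familiar members of the list.

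Of the homologous recombination and Fanconi genes 32 of 35 lay above 0, with a median of 0.64 at 24 h and -0.12 at 8 h, and 7 were called higher: BRCA2, EME1, DSCC1, FANCB, POLQ, BLM and ATAD5. Relative to UT, the median was 0.47 and 0.69 on the 2 vit C-treated arrays. BLM, the RecQ helicase lost in Bloom syndrome, read 0.57, 0.37 and 0.45 in UT and 1.25 and 1.73 in vit C-treated cells (1.03 ± 0.20, q = 0.0189). POLQ, the polymerase of microhomology-mediated end joining, read -1.10, -0.86 and -0.91 against 0.04 and 0.22 (1.09 ± 0.19, q = 0.0136). FANCB, of the Fanconi core complex, read -3.51, -3.67 and -3.70 against -2.48 and -2.55 (1.11 ± 0.19, q = 0.0128).

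BRCA2, a mediator of homologous recombination, was well above background on 1 of the 3 UT arrays and both vit C-treated arrays, at levels of -5.09, -4.07 and -4.80 against -3.24 and -3.38. ATAD5, which unloads the clamp, was called by a second probe (1.06 ± 0.25, q = 0.0489), while its brightest probe differed by 0.25 ± 0.34 and overlapped, at -2.77, -2.72 and -1.41 in UT and -2.22 and -1.88 in vit C-treated cells. DSCC1, of the alternative clamp loader that serves cohesion, was called by both of its probes (1.23 ± 0.26 and 1.24 ± 0.29), with UT slide differences of 0.45 and 0.73. EME1, a partner of the MUS81 nuclease, read -3.60, -3.36 and -3.41 against -2.10 and -2.34 and rose by 1.24 ± 0.24 (q = 0.018).

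Of the checkpoint and p53 target genes, DTL and UHRF1 rose. DTL, the substrate receptor that directs CDT1 and p21 to degradation in S phase, read -0.02, -0.17 and -0.31 in UT and 0.68 and 1.37 in vit C-treated cells (1.19 ± 0.20, q = 0.00933). UHRF1, which brings DNMT1 to newly replicated DNA, read 0.63, 0.09 and 0.13 against 1.11 and 1.71 (1.13 ± 0.23, q = 0.0283). GDF15, a stress-induced cytokine of the TGF-beta family, fell from 9.53, 8.84 and 9.21 to 7.47 and 7.38 (-1.77 ± 0.32, q = 0.0156), and its UT slide difference was -1.01. As a whole the 33 tested genes of the list were split, 17 above and 16 below 0.

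Centromere and mitosis genes followed with fewer calls. At the centromere 25 of 29 genes lay above 0 (median 0.52) and C18orf24 (now SKA1), of the microtubule-binding complex at kinetochores, was the called member, from -4.10, -3.39 and -3.35 to -2.69 and -2.03 (1.25 ± 0.27, q = 0.034). In mitosis 34 of 46 lay above 0 (median 0.31). Relative to UT, the median on the 2 vit C-treated arrays was 0.33 and 0.69 for the centromere and 0.18 and 0.47 for mitosis. The condensin subunit SMC4 was called by a second probe near background (2.10 ± 0.42, q = 0.0229), with its brightest probe at 0.44 ± 0.32. Nucleotide supply had 14 of 18 above 0 (median 0.31, and 0.03 with slide as a block) and no call. RRM2, the small subunit of ribonucleotide reductase, differed by 0.71 ± 0.39 and TYMS, thymidylate synthase, by 0.54 ± 0.25.

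The study's own 24 h genes CDC7, DTL, BLM, MCM10, LRRCC1, MLF1IP and CENPK all lay above 0, and 3 of the 7 were called. The inner kinetochore genes MLF1IP (now CENPU) and CENPK missed the threshold, at 1.06 ± 0.25 (q = 0.0507) and 1.26 ± 0.31 (q = 0.0583). MCM10, which activates the helicase, read -1.12, -1.19 and -1.38 against -0.62 and -0.16 (0.85 ± 0.26, q = 0.113). LRRCC1, a centrosomal protein, read -2.07, -2.13 and -2.54 against -1.91 and -1.25 (0.67 ± 0.29, q = 0.257). These genes were chosen on the same samples, and their count is no independent evidence.

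**Figure D3:**
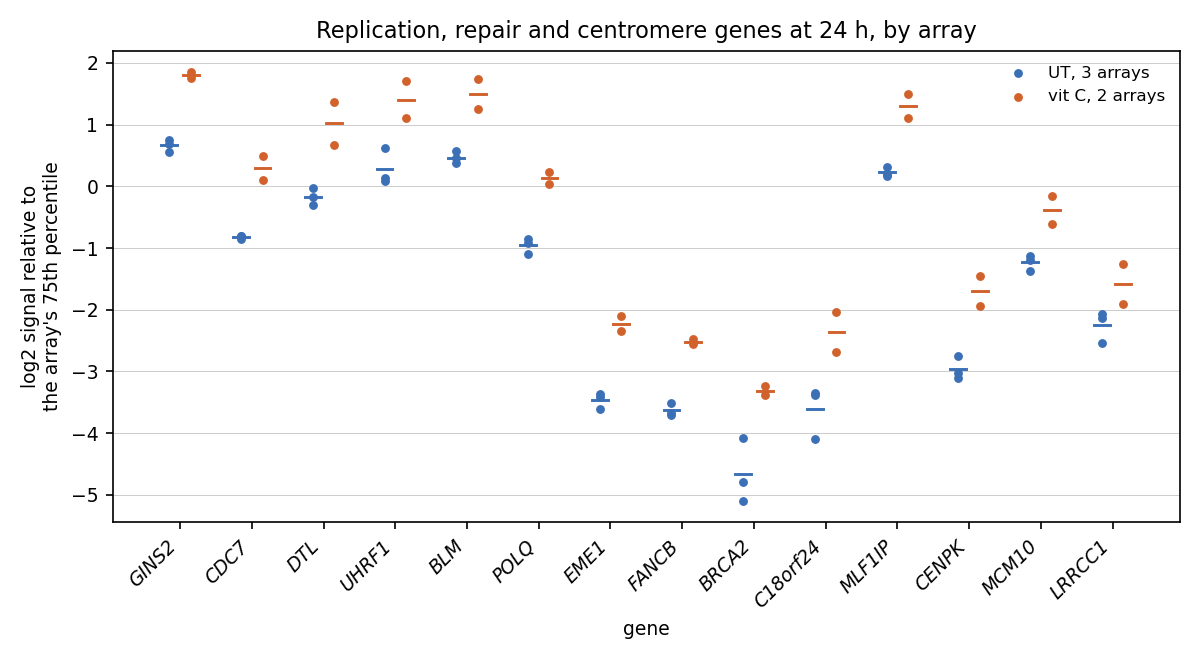
Normalized level (log2 relative to the array's 75th percentile) of 14 replication, repair and centromere genes on each array of 24 h, with UT in blue (3 arrays), vit C-treated in orange (2 arrays) and a bar at each group mean. GINS2 lies at 1.76 and 1.85 in vit C-treated against 0.55 to 0.75 in UT cells, and 4 of the genes (MLF1IP, CENPK, MCM10 and LRRCC1) did not pass the test.

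Since replication genes are classical targets of E2F factors, the 250 bases before each start site were searched in the RefSeq promoters (GRCh38.p14) for TTTGGCGC, TTTCGCGC, TTTCCCGC and TTTGGCGG on both strands. Of the 38 replication genes tested, 33 had a promoter there, and 13 of these held such a match (39.4%), compared with 2.83% of all 35116 promoters. In the centromere list it was 5 of 22 (22.7%), and in the repair list 2 of 30 (6.67%). Of the called genes of these lists and the checkpoint list, GINS2, RFC3, DTL and UHRF1 held 1 each, printed here in the gene's direction with the match in capitals. GINS2 and RFC3 are of the replication list, and DTL and UHRF1 of the checkpoint list. They are shown because their promoters hold the motif. GINS2 lies at chr16:85688955-85689010 (minus strand), RFC3 at chr13:33818069-33818126 (plus), DTL at chr1:212035715-212035747 (plus) and UHRF1 at chr19:4909462-4909500 (plus).
GINS2: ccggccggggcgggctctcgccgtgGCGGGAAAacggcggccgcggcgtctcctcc
RFC3: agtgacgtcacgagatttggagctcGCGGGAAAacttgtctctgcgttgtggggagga
DTL: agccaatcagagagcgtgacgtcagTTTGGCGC
UHRF1: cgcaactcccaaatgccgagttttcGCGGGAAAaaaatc
The match begins 31 bases before the start site in GINS2, 55 in RFC3, 8 in DTL and 14 in UHRF1. CDC7, BRCA2, EME1, FANCB, POLQ, BLM, SMC4 and SKA1 had none of these letters in the window. A match describes the sequence and is not evidence of binding.

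Macrophage surface and secreted genes were raised singly and not as whole lists. FCGR3A, the low-affinity IgG receptor CD16a, read -2.0, -1.97 and -2.19 in UT and -0.12 and 0.11 in vit C-treated cells (2.05 ± 0.18, q = 9.68e-05), with a slide difference of -0.02. It is nearly identical to FCGR3B, from which this array may not separate it. MARCO, a scavenger receptor for particles and bacteria, read -1.20, -0.66 and -1.03 against 1.1 and 0.42 (1.72 ± 0.24, q = 0.00347). They were the called members among 28 scavenger and phagocytic receptors tested, whose median was -0.20.

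Of 17 CC chemokine genes tested, CCL1, CCL8 and CCL23 were called higher and none lower, with a median of 0.19 that turned to -0.15 with slide as a block. CCL8, a monocyte chemoattractant, read 0.16, 0.37 and -0.20 against 1.48 and 1.74 (1.5 ± 0.32, q = 0.0325), and its UT slide difference was 1.03. CCL23, a CCR1 ligand, read 0.58, 0.54 and 0.54 against 1.75 and 1.92 (1.28 ± 0.26, q = 0.0268), with a slide difference of 0.85. Only CCL1 of the 3 was called in all the fits that left out an array of 24 h. None of 10 CXC chemokine genes tested was called.

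S100 genes, which code for small calcium-binding proteins, had 4 called of 14 tested, all higher, and a median of 0.76, which was 0.47 over the 12 detected in both groups. All 4 calls were lost without vit C replicate 1, without vit C replicate 2 and in the fit on the 5 arrays of 24 h alone. S100A16 read 2.62, 3.09 and 3.02 in UT and 4.20 and 4.07 in vit C-treated cells (1.23 ± 0.20, q = 0.00933). S100A8, a subunit of the neutrophil and monocyte protein calprotectin, read -0.64, -0.83 and -0.39 against 0.36 and 0.84 (1.22 ± 0.29, q = 0.0489). S100A3 rose by 1.18 ± 0.22, and S100B, above background on 1 UT array, by 1.47 ± 0.32. The UT slide differences were -0.29, 0.82, 0.63 and 0.91 for the 4 genes in this order. The list's median was 0.24 after normexp background correction. Metallothioneins, the zinc- and copper-binding proteins whose genes resemble each other closely, lay above 0 in 7 of 9 with a median of 0.53 and no call, and MT2A read 5.35, 4.98 and 4.94 against 5.50 and 6.04.

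Growth factor genes moved both ways. PDGFRB, the receptor of platelet-derived growth factor B, read -1.62, -2.0 and -2.20 in UT and -0.23 and -0.15 in vit C-treated cells (1.75 ± 0.21, q = 0.000872). PDGFRB is also a marker of fibroblasts, whose 14 markers on the array summed to 13.6 to 20.7 times the 75th percentile in UT and 21.4 and 22.3 in vit C-treated cells. The 5 fibroblast markers tested all lay above 0, with a median of 0.64. PDGFRA had mean levels of 0.43 in UT and 1.25 in vit C-treated cells, THY1 of 1.31 and 1.80, FAP of 3.56 and 3.84 and COL6A3 of -3.42 and -2.54, while COL1A2, LUM, POSTN, TCF21 and LOX were not well above background on any array. Their part in the result was not tested. EREG, epiregulin, an EGF receptor ligand, rose by 1.61 ± 0.28 (q = 0.0124) to 1.49 and 2.23 from at most 0.57. On the other side BDNF, a neurotrophin, fell from -1.97, -1.57 and -1.66 to -4.42 and -4.48 (-2.71 ± 0.53, q = 0.021). TGFB3 read 2.25, 2.39 and 2.48 against 1.11 and 1.43 (-1.10 ± 0.18, q = 0.00946), and a second probe fell by 2.02. NRG1, neuregulin 1, was called at 1.48 against 0.43 by a second probe (-1.05 ± 0.22, q = 0.0284) and BMP2 at -1.73 ± 0.38 (q = 0.0344, slide difference -1.12). Of the 24 tested, 9 lay above and 15 below 0, with a median of -0.48.

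Of 28 contractile and SRF target genes tested, 5 were called lower and none higher, and 22 lay below 0, with a median of -0.34 at 24 h and -0.32 at 8 h. With slide as a block the median was -0.07. ACTG2, the smooth muscle gamma actin, read 2.64, 2.44 and 2.65 in UT and -0.05 and -0.11 in vit C-treated cells, a fall of 2.65 ± 0.19 and a 6.30-fold difference (q = 2.03e-05). It was called in all of the alternatives run except the adjusted form of the methods' t-test, and its UT slide difference was 0.25. FLNA, the actin crosslinker filamin A, read 5.55, 5.14 and 5.48 against 4.25 and 4.36 (-1.08 ± 0.19, q = 0.0136), and FHL2, a LIM-domain cofactor, 4.04, 3.43 and 3.48 against 2.32 and 2.49 (-1.24 ± 0.20, q = 0.00854). FHL1 fell by 1.55 ± 0.26 and CYR61 (now CCN1), a matricellular protein, by 1.63 ± 0.27 on a second probe. ACTB, the cytoplasmic beta actin, chosen for reference, differed by -0.27 (q = 0.495), and SRF itself by -0.23 (q = 0.47).

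SRF binds the CArG box, and the same 250-base windows were searched for it on both strands. Of the 28 genes tested, 23 had a promoter in the table, and 9 of them held a CArG box (39.1%), against 1.16% of all promoters. ACTG2, FHL2 and FLNA of the called genes did, ACTG2 with 2 boxes, and they are printed here, again in the gene's direction and with the boxes in capitals, because they are the lowered genes that carry it. The stretches are chr2:73892873-73892969 (plus) for ACTG2, chr2:105438580-105438639 (minus) for FHL2 and chrX:154374694-154374753 (minus) for FLNA.
ACTG2: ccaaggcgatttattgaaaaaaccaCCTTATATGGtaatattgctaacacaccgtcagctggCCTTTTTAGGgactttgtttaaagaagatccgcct
FHL2: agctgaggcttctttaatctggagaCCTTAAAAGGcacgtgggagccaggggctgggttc
FLNA: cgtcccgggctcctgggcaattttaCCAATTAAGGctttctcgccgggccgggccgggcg
The boxes begin 110 and 73 bases before the start site in ACTG2, 101 in FHL2 and 94 in FLNA. FHL1 had no match in this window. The list was drawn up as contractile and SRF target genes, so its share is no independent evidence. A match describes the sequence and is not evidence of binding.

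Immediate early genes lay lower almost without exception. Of 27 AP-1 and immediate early genes tested, 26 were below 0, with a median of -0.46 at 24 h and -0.37 at 8 h, and KLF4 and ZFP36 were called lower. The median relative to UT was -0.55 and -0.22 on the 2 vit C-treated arrays. ZFP36, which codes for the mRNA-destabilizing protein tristetraprolin, read 2.77, 2.67 and 2.66 in UT and 1.23 and 1.48 in vit C-treated cells (-1.34 ± 0.18, q = 0.00249). KLF4, a zinc finger factor of monocyte differentiation, read -0.55, -0.50 and -1.08 against -2.60 and -2.24 (-1.71 ± 0.33, q = 0.0209). FOS and JUN, named for reference, differed by -0.90 (q = 0.292) and -0.77 (q = 0.15), and in FOS vit C replicate 2, at 4.73, lay near the lowest UT array at 4.76.

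G protein-coupled receptors had 5 called of 40 tested, all lower, and a median of -0.39. GPR18, a receptor of lipid ligands, fell from -3.04, -2.67 and -2.79 in UT to -4.84 and -4.21 in vit C-treated cells (-1.69 ± 0.25, q = 0.0041). CXCR4, the receptor of CXCL12, read 3.29, 2.84 and 2.78 against 1.74 and 2.17 (-1.02 ± 0.19, q = 0.018). FFAR3, which senses short-chain fatty acids, and the adenosine receptor ADORA3 were called by second probes at -1.40 and -1.51. CHRM3, a muscarinic receptor among the 12 greatest falls, fell by 2.17 ± 0.34 (q = 0.0068).

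Of 25 matrix proteases and their inhibitors tested, 2 were called higher and 2 lower, and 18 lay below 0, with a median of -0.42 at 24 h and -0.56 at 8 h. MMP1, the interstitial collagenase, read 6.45, 5.98 and 6.13 in UT and 4.00 and 4.39 in vit C-treated cells, a 3.99-fold fall (-2.0 ± 0.22, q = 0.000454). ADAMTS1, a proteoglycan-cleaving protease, read 0.31, 0.14 and -0.02 against -1.70 on both arrays (-1.84 ± 0.20, q = 0.000463). MMP7, matrilysin, was higher, from 3.73, 3.71 and 3.46 to 4.92 and 5.28 (1.47 ± 0.23, q = 0.0071), and so was SERPINB2, the plasminogen activator inhibitor of macrophages, from 0.24, -0.39 and -0.33 to 1.32 and 1.75 (1.70 ± 0.28, q = 0.00854). The 32 tested genes of collagens and other matrix proteins had a median of -0.15, and COL24A1 was the called member (1.38 ± 0.23, higher).

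Of 26 HIF target genes tested, ADM and ANGPTL4 fell, while 11 lay above and 15 below 0 with a median of -0.14. ADM, the vasodilator adrenomedullin, read 2.52, 2.12 and 1.86 in UT and -0.11 and 0.06 in vit C-treated cells, a 4.57-fold fall (-2.19 ± 0.21, q = 0.000177). ANGPTL4, an inhibitor of lipoprotein lipase, read -1.81, -1.82 and -1.72 against -3.44 and -3.24 (-1.55 ± 0.28, q = 0.0136). The UT slide differences were -0.21 and -0.77. Among the enzymes that use ascorbate, 25 hydroxylases and demethylases were tested and none was called, with a median of -0.21 and a range from -0.84 to 0.39. FBXL10 (now KDM2B), a histone H3K36 demethylase, read 1.57, 1.71 and 1.65 against 0.88 and 0.73, 0.84 lower with q = 0.0254, short of a doubling.

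**Figure D4:**
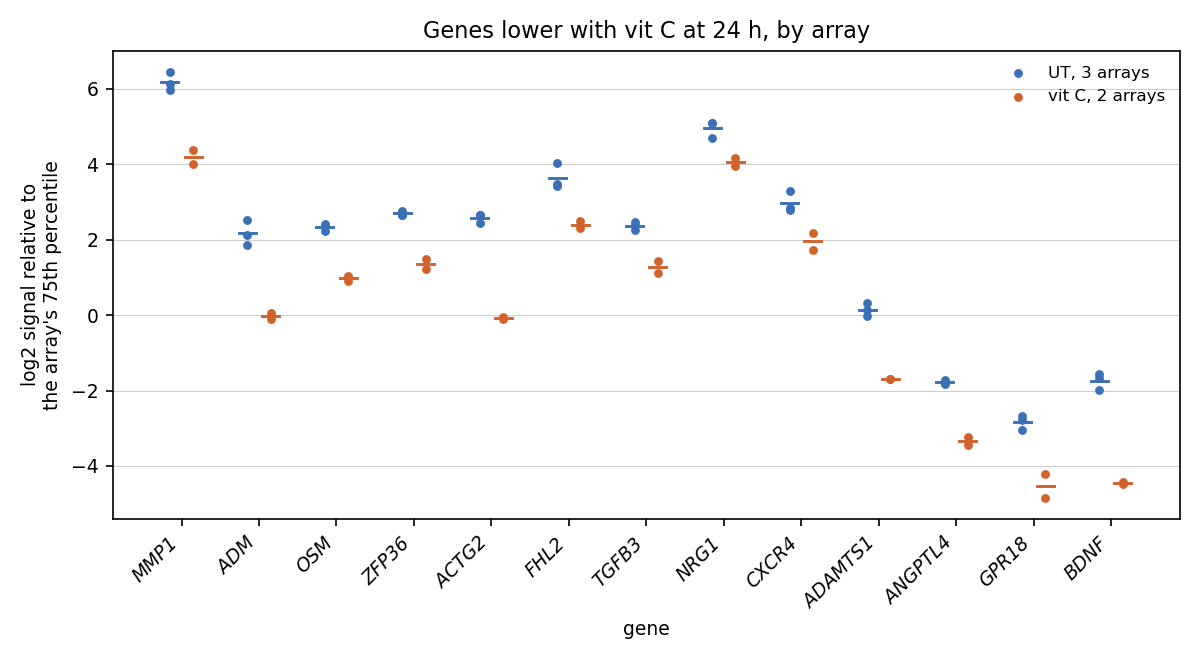
Normalized level (log2 relative to the array's 75th percentile) of 13 genes on each array of 24 h, UT in blue (3 arrays), vit C-treated in orange (2 arrays), bars at the group means, brightest probe of each gene. The genes were picked among those called lower, and the group means differ by 2.65 in ACTG2 and 0.90 in NRG1, whose brightest probe alone did not reach a doubling.

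Several single genes of immunity and lipid handling were also lower. OSM, the cytokine oncostatin M, read 2.36, 2.43 and 2.23 in UT and 1.04 and 0.90 in vit C-treated cells (-1.37 ± 0.18, q = 0.00167). ALOX5AP, which presents arachidonate to 5-lipoxygenase, read 4.92, 4.64 and 5.15 against 3.68 and 4.02 (-1.06 ± 0.20, q = 0.018). HAMP, the iron regulator hepcidin, read 0.51, 0.33 and 0.55 against -0.63 and -0.51 (-1.03 ± 0.18, q = 0.0117). TLR4, the lipopolysaccharide receptor, was called by a second probe (-1.51 ± 0.32, q = 0.0296), and its brightest probe read 0.83, 0.47 and 0.54 against -0.62 and 0.08. The collagen receptor subunit ITGA2 fell by 1.48 ± 0.24, the oxysterol-binding protein OSBPL5 by 1.07 ± 0.23, and GM2A, the ganglioside activator, by 1.30 ± 0.30 on a second probe.

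The remaining genes among the 12 greatest falls were TNFAIP8L3, MAN1C1, SDS, FBLIM1, PCSK6 and ZFYVE28. The brightest probes of FBLIM1 and PCSK6 did not pass the test. SDS, serine dehydratase, read -1.20, -1.03 and -0.70 in UT and -2.82 and -3.19 in vit C-treated cells (-2.02 ± 0.38, q = 0.0179). ZFYVE28, a phosphoinositide-binding regulator of EGF receptor traffic, read -0.88, -0.95 and -0.84 against -2.72 and -2.75 (-1.85 ± 0.19, q = 0.000271), and it was among the calls that held without any 1 array. PCSK6, a proprotein convertase, fell by 1.96 ± 0.27 on the called probe and by 0.77 ± 0.22 on the brightest.

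For genes that no array of 1 group had well above background, the difference is a lower bound against the dimmest signal detected there. Such genes entered the test only through the group in which they were detected, so the bounds and their q values only describe these arrays. PROC, the anticoagulant protein C, read -3.77, -3.28 and -3.58 in UT cells and was not well above background in vit C-treated cells, at least 2.96-fold lower (q = 0.000271). CD180, a relative of the Toll-like receptors, was at least 2.77-fold lower (q = 0.00629). PRSS21, a serine protease, was at least 2.25-fold lower on a second probe, while its brightest probe differed by 0.00. On the other side, GATA6, a zinc finger factor of tissue macrophages and endoderm, was at least 4.29-fold higher (q = 0.0288). PZP was at least 6.52-fold and ZNF509 (now ZBTB49) at least 3.23-fold higher. TBC1D3, one of several near-identical copies, was at least 4.17-fold higher on a second probe, while its brightest probe differed 1.235-fold. The UT slide differences of the called probes were -1.02 for GATA6, 3.50 for PZP, 2.57 for ZNF509 and 2.32 for TBC1D3.

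No call was made in several lists that bear on vit C and on inflammation. Of 23 NF-kappa-B feedback and signalling genes tested none was called (median -0.14), and the same held for 30 NRF2 targets and antioxidant enzymes (-0.16), 36 interferon-stimulated genes (-0.14), 12 MHC class II and CD1 genes (0.33), 24 unfolded protein response genes (-0.34), 28 sterol and fatty acid synthesis genes (-0.03) and 40 oxidative phosphorylation genes (-0.12). Of 7 vitamin C and glucose transporter genes none was called (median -0.34). Relative to UT, the median of these 7 was -0.03 and -0.45 on the 2 vit C-treated arrays. SLC2A5, a fructose transporter, read 3.66, 3.46 and 3.66 against 3.12 and 3.15. HMOX1, haem oxygenase 1, read for reference, stood at 7.98, 7.36 and 7.61 against 7.56 and 6.89. Of 12 housekeeping genes tested 8 were below 0, with a median of -0.19, and GAPDH differed by 0.07. A difference short of the threshold does not show that a gene was the same in both groups.

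**Figure D5:**
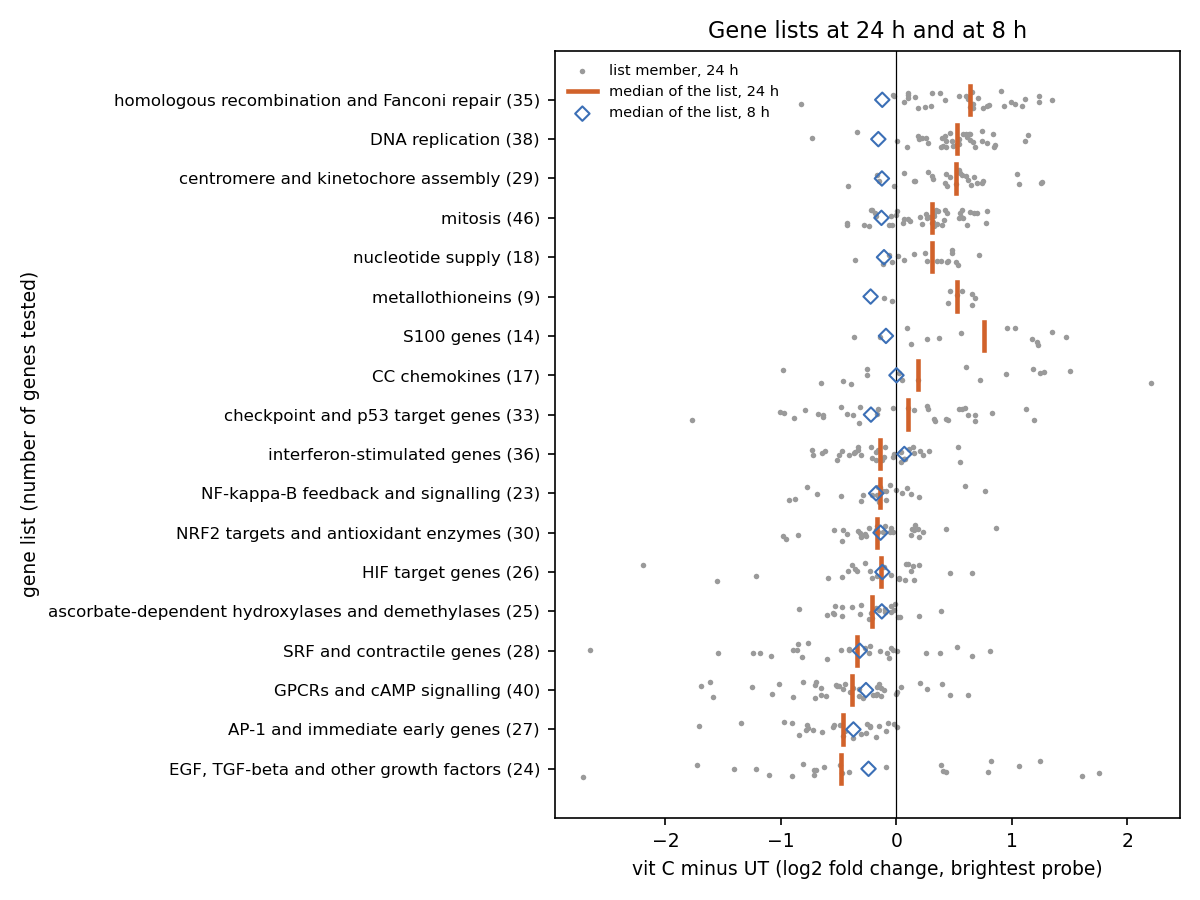
Log2 fold change of vit C-treated over UT cells (x axis, brightest probe) for the tested members of 18 gene lists (y axis, number tested in brackets). Grey points are genes at 24 h, orange bars the list medians at 24 h and blue diamonds the list medians at 8 h. The medians of replication and repair genes lie right of 0 at 24 h (0.52 and 0.64) and left of it at 8 h, while those of AP-1, SRF and receptor genes lie left of 0 at both times.

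The rises at 24 h were set against those at 8 h by the difference between both effects, in which a constant slide difference cancels. Of 17146 genes tested 6 were called, which is 0.035%, and all 6 effects were more positive at 24 h (0 negative calls, 0%). This direction rested on vit C replicate 1 of 24 h, without which 43 genes were called, 7 positive and 36 negative, and with signals floored at 20 it was 30 positive and 16 negative. At an unadjusted p of at most 0.05 the same limits gave 821 genes, 399 positive and 422 negative. DUSP13, a dual-specificity phosphatase, had an effect of -0.07 at 8 h and of 2.03 at 24 h, where it read 0.09, -0.24 and -0.21 in UT and 1.92 and 1.90 in vit C-treated cells, a difference between effects of 2.10 ± 0.24 (q = 0.00903). SLA, the Src-like adaptor, had effects of -0.21 and 1.89 (2.10 ± 0.24, q = 0.00903). It read 2.61, 2.75 and 2.69 in UT and 4.47 and 4.67 in vit C-treated cells at 24 h. PDGFRB had effects of -0.24 and 1.75 (1.99 ± 0.29, q = 0.038).

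SLC1A2, a glutamate transporter, rose on 2 probes, and the called one for the difference had effects of 1.03 at 8 h and 3.19 at 24 h (2.16 ± 0.32, q = 0.038). Its brightest probe read -2.51, -2.78 and -2.90 in UT and 0.02 and 0.09 in vit C-treated cells at 24 h (2.78 ± 0.22, q = 3.68e-05), with a slide difference of -0.05. The unnamed transcript HsapiAK092218 and a dim second probe of CAMTA1 made up the 6. For the replication genes the median of the difference between effects was 0.67, for the repair genes 0.66, for AP-1 genes -0.11 and for SRF genes -0.06, and no member of these 4 lists was called in it. The fits share the untreated and treated arrays of 24 h, so these medians repeat the values above in another form.

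The genes called at 24 h were also read at the other times. Of the 213 raised genes 28, 107 and 41 were called higher again at 8, 48 and 96 h, and of the 155 lowered genes 13, 52 and 34 were called lower again. Of all 16566 genes 0.332%, 2.29% and 2.53% were called higher at these times and 0.211%, 1.78% and 2.16% lower. At 48 h too the groups lay apart, with both UT arrays on slide 1 and the vit C-treated arrays on slides 2 and 3, and 46 of the 70 raised genes of the slide band were called higher there, against 61 of the other 143. At 96 h the UT arrays lay on slides 1 and 2 and the vit C-treated arrays on slide 4. The median log2 fold change of the raised genes was 0.76, 1.73, 1.29 and 0.47 at 8, 24, 48 and 96 h, and that of the lowered genes -0.47, -1.33, -0.64 and -0.41. GINS2 stood at -0.01, 1.14, -0.27 and -0.26 in this order, DTL at -0.20, 1.19, -0.33 and -0.02, and CDC7 at -0.10, 1.11, -0.11 and 0.11. FCGR3A stood at 1.74, 2.05, 1.85 and 2.02 and was called at all 4 times. ACTG2 stood at -1.23, -2.65, -3.93 and -0.12, and MMP1 at -0.90, -2.0, -1.47 and -0.41.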

How the data were processed

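RNA of PMA-differentiated THP-1 cells was hybridized to one-colour arrays with 52857 spots (50238 probes). The authors' scans were quantified with Agilent Feature Extraction. The file headers give 10.5.1.1 as the version of its grid placement, whereas the study's methods name a later version of the software. The processed signal deposited is a background-corrected intensity. The log2 value table that the authors deposited beside it was an alternative source.

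Control spots and flagged spots (42 probes on the 24 h arrays) were left out, repeated spots were replaced by their mean, and log2 signals were set relative to the array's own 75th percentile. Well above background were 57.5% to 65.8% of the probes on the 24 h arrays, and none was saturated. With 3 and 2 arrays, their number limits the precision.

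limma 3.58.1 (R 4.3.3) was fitted to all 19 arrays with a term per group, so that all groups share 1 estimate of the spread, and contrasts were adjusted by Benjamini-Hochberg over all probes. A gene was called where a probe passed a log2 change of 1 and q of 0.05, and it is shown by its brightest probe unless another is named. Errors (±) are standard errors of the fit. Gene names are those of the files, and 14401 of the 20623 matched a RefSeq symbol, 2975 under another symbol now. The code was tested on simulated data.

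Named are the 12 greatest rises and falls, the called members of each list (6 at most), up to 2 members of lists without a call, the study's 24 h genes, the 4 greatest bounds in each direction, the greatest differences from 8 h, and reference genes, of which some are not reported here. The genes and lists were chosen with earlier results of these data known. Alternatives were the methods' t-test, other samples in the fit, a variance trend, normalization, background, floor, filters on dim probes, probe rules, slide and replicate blocks, array weights and single arrays left out.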

Additional observations from a re-analysis of the deposited data

Results flagged for a closer look

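For 6 genes the effect of vit C at 24 h differed from that at 8 h by limma's test of the difference itself. The difference on the log2 scale was 2.1013 for DUSP13, 2.0979 for SLA, 1.991 for PDGFRB, 2.1577 for SLC1A2, 2.7133 for the transcript HsapiAK092218 and 2.5649 for a dim probe of CAMTA1. HsapiAK092218 and CAMTA1 have probes that moved in opposite directions at 24 h and are not among the genes called there.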

How the results depend on the processing

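Values are numbers of called genes unless said otherwise. For the 24 h comparison (368), the methods' t-test gave 866 unadjusted and 0 after Benjamini-Hochberg, limma at an unadjusted p 1156, a fit on the 5 arrays of 24 h 177 (92.7% higher, 88 of them among the 368), slide as a fixed block 17, and the same without UT 96 h replicate 3, chosen after seeing the data, 41. With the replicate number as a block it was 6 (83.3% higher). The deviations of same-numbered arrays correlated at -0.264 and -0.02. With 2 vit C-treated arrays their deviations mirror each other, so these values cannot decide whether the numbers pair the flasks. Leaving out 1 array gave 69 (vit C replicate 2) to 302 (vit C replicate 1), with 200 to 232 for the UT arrays, and a share higher of 36.1% to 57.8%, 42% without vit C replicate 2. For the difference between 24 h and 8 h (6), the t-test gave 721 unadjusted and 0 adjusted, an unadjusted p in limma 821, the fit on 10 arrays 0, quantile normalization 14, a floor of 20 46, slide as a block 3, the replicate block 0 and gene means of probes 2. Leaving out 1 array gave 1 (vit C 24 h replicate 2) to 43 (vit C 24 h replicate 1, 36 of them negative), with 2 without UT 8 h replicate 1 and 3 without any 1 vit C array of 8 h or UT 24 h replicate 3. The replication median of 0.524 was 0.363 with slide as a block and 0.409 to 0.583 without 1 array, and the repair median of 0.64 was 0.433 after normexp, 0.368 with the slide block and 0.474 to 0.687. Signs turned with slide as a block, and in brackets also without UT 96 h replicate 3, for the medians of histones at -0.273 (-0.17), CC chemokines at -0.154 (-0.034), ascorbate-dependent enzymes at 0.054 and NRF2 targets at 0.012, and for PABPC3 at -0.099 (-0.073) and RPL23AP13 at -0.45 (-0.081). Only the second of these fits turned pattern recognition receptors (0.148), interferon-stimulated genes (0.004), lineage transcription factors (0.036), CXC chemokines (0.039) and TMEM16H (-0.226), quantile normalization turned ribosomal proteins (0.023), and normexp turned sterol synthesis (0.005). Pattern recognition receptors also turned without UT 24 h replicate 1 (0.001) or vit C replicate 1 (0.047), and the histone median of 0.007 was below 0, down to -0.011, in 6 further alternatives. The cause was not tested. Of the 86 named calls, 6 held with slide as a block (ACTG2, ADAMTS1, DUSP13, FCGR3A, ITGA2 and SLC1A2) and 2 with the replicate block (ACTG2 and SLC1A2).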
